A study of Homo sapiens with 17 samples.

Results

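Senescent and transformed human fibroblasts, both expressing an oncogenic RAS, were compared in RNA-Seq (mRNA level) and Ribo-Seq (ribosome-protected footprints). The ratios set the states directly against each other, and control cultures serve only as a further point of reference. The members were chosen by their labelled state alone, giving 4 libraries of the 17 in the series, and 9699 protein-coding transcripts were listed in them. BJ cells are foreskin fibroblasts immortalized with hTERT, the catalytic subunit of telomerase. The senescent culture was BJ/hTERT carrying RASG12V behind a tamoxifen switch and treated with 4-hydroxytamoxifen (4-OHT) for 14 days. The transformed culture was BJ/hTERT with p16INK4A and p53 knocked down and with SV40 small T, transduced with a constitutive RASG12V vector. Both therefore shared hTERT and RASG12V and differed in the form of RAS, the 4-OHT, the knockdowns and small T together, and the parts of these differences cannot be told apart.

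Each state had 1 library per layer, so no difference below has a replicate check and no p-value is given. A proliferating library of the same sequencing run was used as a further point of reference. A pooled proliferating column from another run was set against it to show how far columns of one condition lay apart. The Ribo-Seq library titled as senescent carries the condition label of proliferating cells, and the proliferating one carries that of senescent cells. They were grouped by title. Across 9699 transcripts the log2 profile of the Ribo-Seq library titled senescent had a Pearson r of 0.897 with the senescent RNA-Seq library, 0.780 with the proliferating one and 0.760 with the transformed one. The library titled proliferating had its highest r, 0.875, with the proliferating RNA-Seq library, so the profiles went with the titles.

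Oncogene-induced senescence is a stable exit from the cell cycle that RAS triggers in normal cells, held by the p53 and RB pathways and accompanied by a secretory program and an enlarged lysosomal compartment. Transformation needs those brakes to be disabled. Translation efficiency (TE), the footprint level relative to the mRNA level, reports how heavily a transcript is loaded with ribosomes, and mRNAs of ribosomal proteins share a pyrimidine tract at the cap (5′ TOP) through which the growth kinase mTOR controls their loading.

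Values are FPKM, reads scaled to transcript length and library size, which the authors raised to a floor of 1. A ratio is the log2 of senescent over transformed FPKM, TE differences are the Ribo-Seq ratio minus the RNA-Seq ratio, and a transcript was called at 2-fold. In RNA-Seq, 784 of 9567 transcripts above the floor were higher in senescent cells (8.19%) and 1464 were lower (15.3%). In Ribo-Seq, 1230 of 9581 were higher (12.8%) and 1675 were lower (17.5%). In TE, 313 of 9510 were higher (3.29%) and 305 were lower (3.21%). The pair of proliferating columns differed by 2-fold at 7.97% of transcripts in RNA-Seq, 18.9% in Ribo-Seq and 9.66% in TE. The called share was above that yardstick in RNA-Seq (23.5%) and Ribo-Seq (30.3%) and below it in TE (6.50%), so single TE calls are read here only beside their group.

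The layers moved together: the RNA-Seq and Ribo-Seq ratios had a Pearson r of 0.868 across 9510 transcripts, a description without a test since all rest on the same 4 libraries. Transcripts lower in both layers numbered 1128 and those higher in both 598. A further 629 were higher and 530 lower in Ribo-Seq alone. The median ratio over all transcripts was -0.10 in RNA-Seq, -0.11 in Ribo-Seq and 0.03 in TE, and list medians below are given beside these.

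**Figure D1:**
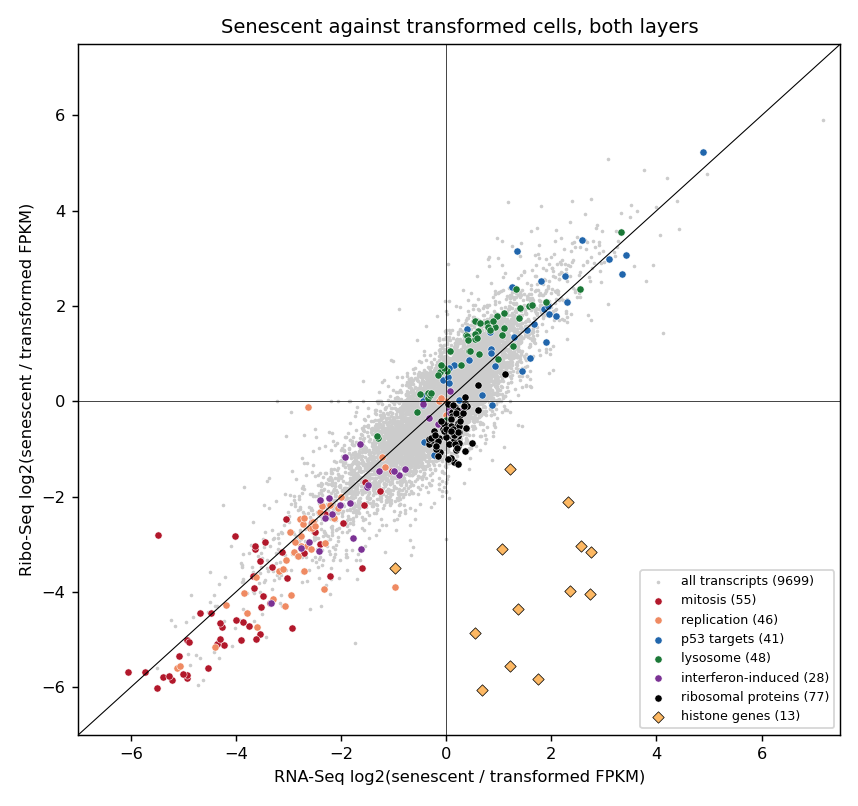
Each point is a transcript, with the RNA-Seq log2 ratio of senescent over transformed FPKM on the x axis and the Ribo-Seq ratio on the y axis; the diagonal marks equal ratios. Mitosis and replication transcripts lie at the lower left, p53 targets at the upper right, ribosomal proteins below the diagonal near 0 RNA change, and 13 histone genes far below it.

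The genes that the constructs add or silence came first. HRAS, the RAS gene that the reads of the vectors map to together with the cell's own copy, was at 2087 FPKM in the senescent, 312 in the transformed and 1284 in the proliferating RNA-Seq library. Its footprints were at 4010, 212 and 2058 FPKM, so the senescent culture had the higher HRAS signal in both layers, by log2 2.74 and 4.24. ESR1 is the estrogen receptor whose ligand-binding part is the usual tamoxifen switch. In RNA-Seq it was at 144 FPKM in senescent and 102 in proliferating cells and at the floor in transformed cells. Its footprints were at 532, 242 and 8.84 FPKM in the same order. The pooled proliferating column held ESR1 at 19.2 FPKM in RNA-Seq. The proliferating library thus held the HRAS and ESR1 signal as well. CDKN2A, whose locus encodes p16INK4A and ARF, was measured on 1 transcript, and which product that is was not determined. It was at 27.9 FPKM in senescent and 12.6 in transformed RNA-Seq but at 6.33 and 5.51 in Ribo-Seq, a ratio of 1.14 in the first layer and 0.20 in the second. For CDKN2A the pooled proliferating column lay at log2 1.35 in RNA-Seq from the proliferating library of this run. TERT was at 19.1 in senescent and 48.9 FPKM in transformed RNA-Seq. Among the other RAS genes RRAS2 was higher by log2 1.06 in RNA-Seq and NRAS lower in Ribo-Seq by log2 -1.01.

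Targets of p53 were higher in senescent cells. Of 41 listed, 21 were higher in RNA-Seq and none lower, with a median log2 ratio of 1.26, and 23 were higher and 2 lower in Ribo-Seq, with a median of 1.30. GDF15, a stress-induced growth factor of the TGF-beta family, was at 163 FPKM in senescent and 5.50 in transformed RNA-Seq and at 436 and 11.6 in Ribo-Seq. CDKN1A, the p21 inhibitor of cyclin-dependent kinases, was at 814 FPKM in senescent, 80.3 in transformed and 172 in proliferating RNA-Seq, and its footprints at 548, 86.0 and 223. The proliferating library of this run lay near the transformed one for GDF15 and between the others for CDKN1A. For these genes the pooled proliferating column lay at log2 1.48 and -1.09 in RNA-Seq from the proliferating library of this run. PERP, a p53-induced membrane protein, was higher by log2 2.58 and 3.38, and RRM2B, the p53-induced ribonucleotide reductase subunit, by 2.29 and 2.08. MDM2, the ligase that degrades p53, was at 35.3 and 13.9 FPKM in RNA-Seq but at 140 and 15.7 in Ribo-Seq, a TE difference of 1.81, among the 10 highest of those with a mean of at least 10 FPKM in both layers and no value at the floor. For MDM2 the pooled proliferating column lay at -0.82 in TE from the proliferating library of the same run. By role, 5 of 9 arrest genes, 7 of 12 apoptosis genes, 7 of 11 metabolism and growth genes, 1 of 5 repair genes and 1 of 4 feedback genes were higher in RNA-Seq.

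The CDK inhibitors and RB family as a list had 2 of 9 listed members higher (22.2%) and 5 lower (55.6%) in RNA-Seq, against 8.19% and 15.3% of all transcripts. CDKN1A was high, while RB1, the retinoblastoma pocket protein, was at 18.4 and 18.6 FPKM in RNA-Seq. The median of -1.01 was carried by low transcripts, and with at least 10 FPKM required it was 1.14 over 3 transcripts. In the mTOR list 3 of 21 were higher (14.3%) and 1 lower (4.76%) in RNA-Seq, against the same 8.19% and 15.3%. SESN2, a p53-induced brake on mTOR, was at 16.7 FPKM against 6.82, and EIF4EBP1, the mTOR-regulated repressor of cap-dependent initiation, was at 34.1 against 76.9. For EIF4EBP1 the pooled proliferating column lay at log2 1.52 in RNA-Seq from the proliferating library of this run, a larger difference than its ratio of -1.17.

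Mitotic genes formed the most uniform group. All 55 listed were lower in senescent cells in both layers, with a median log2 ratio of -3.67 in RNA-Seq and -4.45 in Ribo-Seq, and 26 and 21 of them respectively had a value at the floor, so that those ratios are bounds. In RNA-Seq BIRC5, the survivin subunit of the chromosomal passenger complex, was at 1.06 FPKM in senescent, 70.4 in transformed and 49.0 in proliferating cells. UBE2C, the conjugating enzyme of the anaphase-promoting complex, was at 1.45, 77.0 and 81.6. PLK1, a mitotic kinase, was at 1.40, 63.7 and 60.7, and CDC20, the activator of that complex, at 2.19, 91.6 and 86.2. The transformed and proliferating libraries lay close together and the senescent library apart, and in all 55 the proliferating value was nearer the transformed one, in both layers.

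Replication genes were lower too: 41 of 44 tested in RNA-Seq and 41 of 45 in Ribo-Seq, none higher in either, with medians of -2.72 and -2.97. All 17 origin licensing genes were lower. RRM2, the S-phase subunit of ribonucleotide reductase, was at 1.36 FPKM in senescent, 47.3 in transformed and 75.9 in proliferating RNA-Seq, which contrasts with its p53-induced relative RRM2B above. TK1, thymidine kinase, was at 2.24 and 74.7 FPKM, and MCM7, a subunit of the replicative helicase, at 5.42 and 74.9. The median TE differences of the replication and mitosis lists, -0.20 and -0.50, include members at the floor, for which TE is set by the floor, and nothing is read from them.

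**Figure D2:**
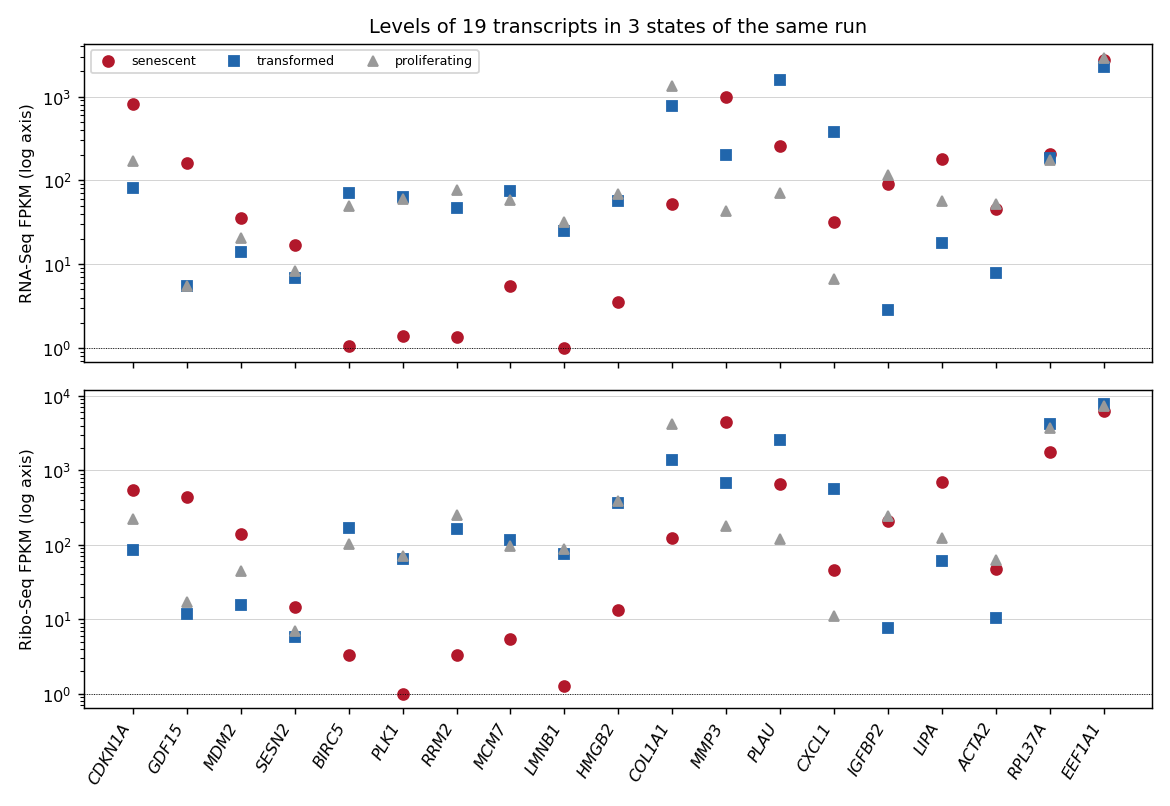
FPKM on a log axis for 19 transcripts, chosen after their values were seen, in the senescent, transformed and proliferating libraries of the same run, RNA-Seq above and Ribo-Seq below; the dotted line is the floor of 1 FPKM. BIRC5, PLK1, RRM2, MCM7, LMNB1 and HMGB2 sit low in the senescent library alone, while PLAU and CXCL1 sit highest in the transformed library.

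Promoter sequences of the mitotic genes are shown because these genes moved as a block. A cell cycle element, the CHR, with the core TTTGAA, is known near the start of many late cell cycle genes. RefSeq windows (250 bases before to 50 after a start, GRCh38.p14) were searched for TTTGAA on either strand; several starts of a gene were pooled. The stretches below, from 5 genes chosen after their values were seen, show the core in capitals.
CDK1, chr10:60778453-60778482, plus strand: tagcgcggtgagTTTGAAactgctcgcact
PLK1, chr16:23678848-23678877, plus strand: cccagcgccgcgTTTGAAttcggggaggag
CCNB2, chr15:59105105-59105134, plus strand: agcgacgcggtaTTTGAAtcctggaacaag
NUSAP1, chr15:41332882-41332911, plus strand: tggcgccagggaTTTGAAccgcgctgacga
CDC20, chr1:43358904-43358933, plus strand: cgacggttggatTTTGAAggagccaatagg

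The core began 13 bases before the start in CDK1, 29 before it in PLK1 and CCNB2, 65 before it in CDC20 and 13 after it in NUSAP1. Within 50 bases of a start it was held by 27 of the 46 mitosis genes with a window (58.7%), by none of 38 replication genes, by 3.33% of 30 p53 targets, by 4.43% of the 7292 listed transcripts with a window and by 5.77% of all 27305 genes. The distance was chosen after the whole windows had been searched, where the shares were 69.6% of the mitosis genes and 18.2% of all genes. CCAAT, another element of such promoters, was held on either strand by 76.1% of the mitosis genes and 39.7% of all genes. It was held by 44.0% of the listed transcripts with a window. Its share was 79.2% in sterol and fatty acid synthesis genes, 70.4% in chaperones, 57.9% in replication genes and 35.5% in ribosomal protein genes. A high share of CCAAT was thus not particular to the mitosis genes. All 27 mitosis genes with the core and all 19 without it were lower in RNA-Seq, with medians of -3.86 and -3.64. Outside both cell cycle lists the median RNA-Seq ratio was -0.39 in 290 transcripts with the core and -0.08 in 6780 without, and 30.3% and 13.5% were lower. A match describes the letters only, not a bound factor.

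Nuclear lamina and chromatin genes were lower, 11 of 18 in RNA-Seq and 14 of 18 in Ribo-Seq, none higher. LMNB1, lamin B1, whose loss is a known feature of senescent cells, was at the floor in senescent RNA-Seq against 24.9 FPKM in transformed and 32.3 in proliferating cells, at least log2 4.64 lower. HMGB2, a chromatin-bound high mobility group protein, was at 3.50 and 56.6 FPKM. HMGB1 was at 23.4 and 109, and its footprints at 192 and 1784, a Ribo-Seq ratio of -3.21. H2AFX, the histone variant phosphorylated at DNA breaks, was at 18.3 and 92.4.

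Secreted factors split between the states. Of 16 listed cytokines and chemokines, 10 were lower and 1 higher in RNA-Seq, and 10 were lower and 2 higher in Ribo-Seq. The list held 28 genes, and the others were not listed in the table. CXCL1, a neutrophil attractant, was at 32.3 FPKM in senescent, 374 in transformed and 6.65 in proliferating RNA-Seq. CSF3, the granulocyte colony stimulating factor, was at 12.9, 96.0 and the floor, and CXCL10 at 1.38, 36.4 and the floor. IL11 was at 6.09, 35.8 and 9.62. For CXCL1, CSF3 and CXCL10 the senescent library lay between the proliferating and the transformed ones, so these were low only relative to transformed cells.

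Other secreted groups had members on both sides. PLAU, the urokinase plasminogen activator, was at 259 FPKM in senescent, 1564 in transformed and 70.3 in proliferating RNA-Seq. MMP3, the stromelysin, was higher, at 982, 201 and 43.4, with footprints at 4462, 686 and 178. ADAMTS1, a matrix protease, was at 111, 27.6 and 229, and SERPINB2, an inhibitor of plasminogen activators, at 270, 82.1 and 22.9. Among 16 proteases 3 were higher and 3 lower in RNA-Seq, 18.8% each against 8.19% and 15.3% of all transcripts. In Ribo-Seq 7 were higher and 1 lower, 43.8% and 6.25% against 12.8% and 17.5%. IGFBP2, which binds insulin-like growth factors, was at 89.3 FPKM in senescent against 2.87 in transformed and 115 in proliferating cells, whereas IGFBP3 was at 3.40, 16.6 and 56.6. In the libraries of this run transformed cells were thus the exception for IGFBP2, and both RAS states lay below proliferating cells for IGFBP3. These readings depend on the proliferating column used. In RNA-Seq the pooled proliferating column lay at log2 -2.43 for IGFBP2, -1.71 for IGFBP3 and 3.20 for MMP3 from the library of the same run. Of 12 growth factors 2 were higher, GDF15 among them, and 2 lower in RNA-Seq, 16.7% each. EREG, an EGF receptor ligand, was at 28.4 and 78.4 FPKM. With so few calls, nothing is read from the RNA-Seq split of the protease and growth factor lists. In the list of NF-kB genes, 1 of 15 was higher (6.67%) and 4 lower (26.7%) in RNA-Seq, against 8.19% and 15.3% of all transcripts. ICAM1, an adhesion receptor for leukocytes, was at 218 and 62.8, and NFKBIA, the inhibitor of NF-kB, at 18.0 and 58.2. The ERK feedback and AP-1 list had 3 of 23 higher (13.0%) and 8 lower (34.8%) in RNA-Seq. FOSL1, an AP-1 subunit induced by RAS, was at 98.0 and 246 FPKM and DUSP5, a phosphatase of ERK, at 123 and 58.9.

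Of 43 matrix genes tested in RNA-Seq 19 were lower and 7 higher. Among 16 collagens 10 were lower and 1 higher, with a median of -1.68. COL1A1, a chain of the main fibrillar collagen, was at 51.6 FPKM in senescent, 762 in transformed and 1328 in proliferating RNA-Seq. COL6A1 was at 148, 1429 and 463, and COL6A2 at 201, 2308 and 796. The transformed library was highest for collagen VI and the senescent library lowest for all 3. The pair of proliferating columns also differed in collagens, with a median of -1.33 in RNA-Seq. Contractile genes had the reverse pattern: 8 of 11 were higher in RNA-Seq and none lower. ACTA2, smooth muscle actin, was at 45.3 FPKM in senescent, 7.79 in transformed and 52.0 in proliferating cells, and TAGLN, an actin-binding protein, at 251, 54.4 and 409. For both the transformed library was the low one. Of 8 YAP/TEAD targets 1 was higher. Among 18 adhesion receptors ITGA8 was at 1.10 and 22.1 FPKM, ITGA11, a collagen-binding integrin, at 2.35 and 35.1, and CD9, a tetraspanin, was higher at 272 and 53.1.

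Fibroblast identity was checked by marker genes. All 12 fibroblast markers were listed, summing to 5846 FPKM in senescent, 7232 in transformed and 8156 in proliferating RNA-Seq. Of the 12 epithelial markers 4 were listed, of 8 endothelial markers 1 and of 9 blood cell markers 2. Their RNA-Seq sums ran 208, 221 and 316 FPKM, then 1.00, 3.65 and 1.00, then 39.3, 54.0 and 73.8 in the same order of libraries. Sums do not show single members. Of the 12 fibroblast markers 33.3% were lower and 8.33% higher in senescent than in transformed RNA-Seq, against 15.3% and 8.19% of all transcripts. In Ribo-Seq 41.7% were lower and 16.7% higher, against 17.5% and 12.8%. Of the 4 epithelial markers 50% were higher in RNA-Seq and none lower.

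Interferon-induced genes were lower: 17 of 28 in RNA-Seq and 19 of 28 in Ribo-Seq, none higher, with medians of -1.57 and -1.65. IFI35 was at 2.53 FPKM in senescent, 25.4 in transformed and 13.3 in proliferating RNA-Seq, IFIT3, which binds viral RNA, at 3.98, 18.7 and 11.7, and PSMB8, an immunoproteasome subunit, at 7.04, 29.5 and 21.5. The senescent library was lowest and the transformed library highest for all 3. In 12 of the 17 the proliferating value was nearer the senescent one. MHC class I genes had 4 of 10 lower. Over both groups together the RNA-Seq median was -1.34, and -0.34 over the 19 members with a mean of at least 10 FPKM, so its size rested on low transcripts.

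Lysosomal genes were higher, and more so in footprints. Of 47 tested in RNA-Seq 12 were higher and 2 lower, and of 48 in Ribo-Seq 31 were higher and none lower, with medians of 0.58 and 1.35. LIPA, lysosomal acid lipase, was at 182 FPKM in senescent, 18.1 in transformed and 56.2 in proliferating RNA-Seq, and its footprints at 707, 60.1 and 123. For LIPA the pooled proliferating column lay at log2 -2.14 in RNA-Seq from the proliferating library of the same run. ATP6V0E1, a subunit of the proton pump, was at 532, 91.0 and 174 in RNA-Seq, and MCOLN1, a lysosomal calcium channel, at 38.0, 12.4 and 11.4. FUCA1, a fucosidase, was at 19.2 and 5.15, a ratio of 1.90, and its pooled proliferating column lay at -1.90 from the library of the same run. The TE difference was above 0 in 44 of 47, and in 34 of 34 enzymes, with a median of 0.63, while 52.6% of all transcripts were above 0.

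Metabolic lists had few calls. Of 21 glycolysis genes 1 was higher and 2 lower in RNA-Seq, PFKFB3, which makes the activator of phosphofructokinase, being at 14.0 and 57.2 FPKM and ALDOA, aldolase, at 784 and 428. Among 32 genes of sterol and fatty acid synthesis 1 was higher and 3 lower, with ACAT2 at 12.3 and 43.5 FPKM. The amino acid list had 4 of 35 higher (11.4%) and 2 lower (5.71%), against 8.19% and 15.3% of all transcripts. PHGDH, the first enzyme of serine synthesis, was at 14.8 and 43.9 FPKM and GARS, glycyl-tRNA synthetase, at 215 and 82.3. For PHGDH the pooled proliferating column lay at log2 1.71 in RNA-Seq from the proliferating library of the same run. That is a larger difference than its ratio of -1.57.

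**Figure D3:**
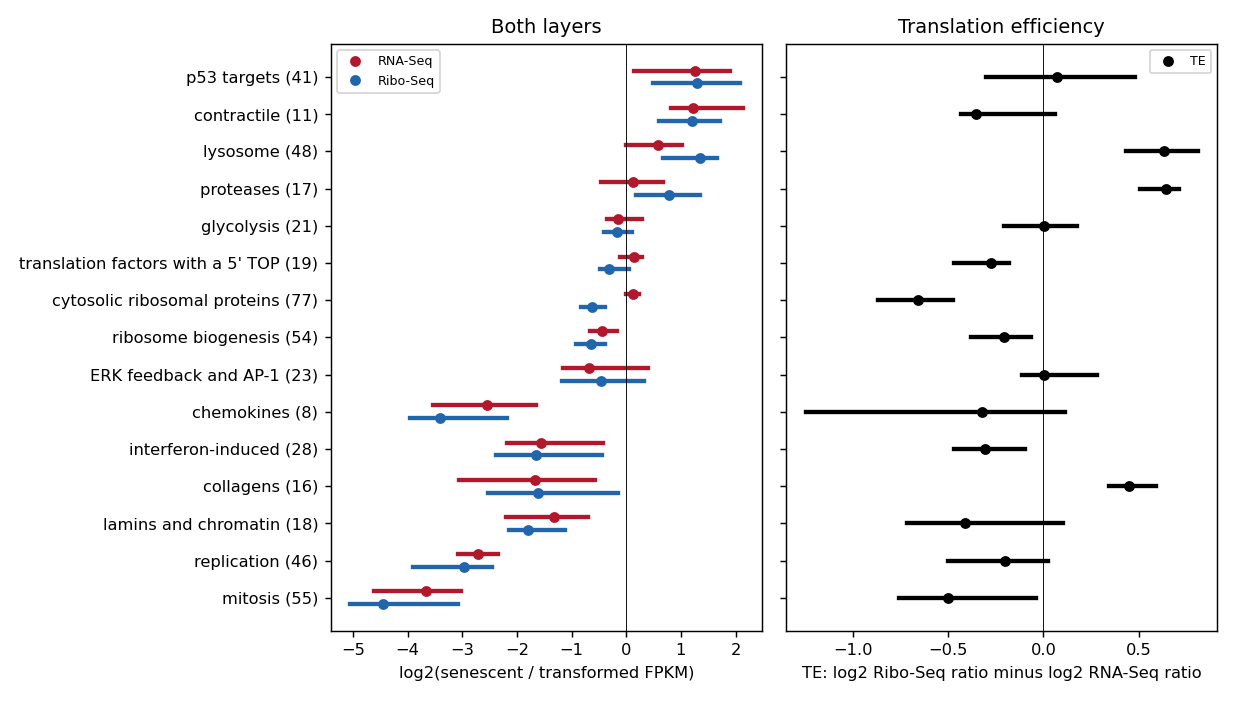
Median (dot) and middle 50% (bar) of the log2 ratio over listed members of 15 gene lists, in RNA-Seq and Ribo-Seq on the left and in TE on the right; the number of members is in brackets. Ribosomal proteins sit near 0 in RNA-Seq and at -0.66 in TE, and lysosomal genes at 0.63 in TE.

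Ribosomal proteins differed in loading rather than in mRNA level. Of 77 ribosomal protein transcripts 1 was higher and none lower in RNA-Seq, with a median of 0.13, and 8 were lower in Ribo-Seq (10.4%, against 17.5% of all transcripts). The TE difference was below 0 in all 77, with a median of -0.66, and 12 were lower past 2-fold (15.6%, against 3.21% of all transcripts). The median log2 TE level was 0.29 in senescent, 0.91 in transformed and 0.84 in proliferating cells, and in 75 of 77 the proliferating library was nearer the transformed one. The pair of proliferating columns differed by a median of -0.03. RPS27 was at 1100 FPKM in senescent, 940 in transformed and 1206 in proliferating RNA-Seq and at 535, 1324 and 1230 in Ribo-Seq, a TE difference of -1.53. RPL37A was at 205, 185 and 174 in RNA-Seq and at 1756, 4246 and 3666 in Ribo-Seq. RPL41 and RPS28 had TE differences of -1.40 and -1.37, and RPL41 differed by -1.18 between the proliferating columns. Both subunits took part, with medians of -0.65 in 47 large and -0.69 in 30 small subunit transcripts.

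The first 20 transcribed bases of RefSeq (GRCh38.p14) show what most of these mRNAs share, with the pyrimidines that run from the start in capitals. These genes and the rule for the start below were chosen after their values were seen. Where a gene had several annotated starts, a start meeting the rule was shown if there was any. In the shares below a gene counts if any of its starts met the rule. GAPDH, a glycolytic enzyme, is shown as an annotated start without a run. RPS28 begins with an A that a run of pyrimidines follows, so it misses the rule only by its first annotated base.
RPS27, chr1:153990762-153990781, plus strand: CCTTTCCggcggtgacgacc
RPL37A, chr2:216498844-216498863, plus strand: CTTTCTgggctcggacctag
RPL41, chr12:56116633-56116652, plus strand: CTCTCggccttagcgccatt
EEF1A1, chr6:73521013-73521032, minus strand: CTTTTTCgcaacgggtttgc
NPM1, chr5:171387849-171387868, plus strand: CTTTCCCTggtgtgattccg
RPS28, chr19:8321496-8321515, plus strand: actcctctccgccagaccgc
GAPDH, chr12:6535264-6535283, plus strand: gtccggatgctgcgcctgcg

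A start with C and at least 4 further pyrimidines was held by 46 of 62 ribosomal protein genes with a window (74.2%), by 7.89% of listed transcripts and by 5.14% of all genes. The median TE difference was -0.72 in the 46 and -0.53 in the 16 without it. The 16 include RPS28, so a start that misses the rule is not an mRNA without a pyrimidine tract. Among all other transcripts it was 0.01 in 521 with such a start and 0.04 in 6570 without, so outside the ribosomal proteins the medians with and without this start lay close together.

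Translation factors and other mRNAs with a known 5′ TOP had a TE difference below 0 in 18 of 19, with a median of -0.27, none past 2-fold. The median log2 TE level of 5 elongation factors was 0.21 in senescent and 0.65 in transformed cells. It was 0.03 and 0.46 for 7 initiation and poly(A) binding factors, and 1.18 and 1.13 for the 7 other TOP mRNAs. EEF1A1, the factor that brings aminoacyl-tRNA to the ribosome, was at 2721 and 2252 FPKM in RNA-Seq and at 6203 and 7722 in Ribo-Seq, and NPM1, nucleophosmin, at 530 and 547 and at 1436 and 2388. For this list the proliferating TE level was nearer the transformed one in 9 of 19. Among 25 factors without a TOP the median was -0.16, and EIF5A, the hypusine-carrying elongation factor, was the 1 past 2-fold, at 58.9 and 60.6 FPKM in RNA-Seq but 217 and 615 in Ribo-Seq. Ribosome biogenesis genes were below 0 in 47 of 54 in RNA-Seq, with a median of -0.44, where 45.0% of all transcripts lay above 0. Only 3 were past 2-fold, all lower (5.56%, against 15.3% of all transcripts). FBL, the nucleolar methyltransferase fibrillarin, was at 30.7 FPKM in senescent, 105 in transformed and 78.4 in proliferating RNA-Seq, and UBTF, an RNA polymerase I factor, at 11.4, 32.4 and 21.4.

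Several lists of proteins that enter the secretory route had TE differences above 0. The TE difference was above 0 in 16 of 16 chaperones of the endoplasmic reticulum, with a median of 0.47, against 4 of 12 cytosolic ones, with a median of -0.14. It was above 0 in 40 of 43 matrix genes (median 0.58), 15 of 16 proteases and their inhibitors (0.64) and 17 of 18 adhesion receptors (0.50). It was above 0 in 11 of 12 growth factors (0.41) but in 7 of 16 cytokines and chemokines (-0.13), 2 of 8 for the chemokines alone (-0.32). The median log2 TE level of the 8 interleukins and colony stimulating factors was 1.11 in senescent and 0.73 in transformed cells. For the 8 chemokines it was 0.71 and 1.09. These chemokines summed to 60.5 FPKM in senescent RNA-Seq, of which CXCL1 made up 32.3. The others were low there, so nothing is read from the TE of the chemokines. Past 2-fold in TE were 5 matrix genes, 2 adhesion receptors and no protease or chaperone, where 3.29% of all transcripts were called higher. DNAJB9, a chaperone of that compartment, was at 22.6 and 9.26 FPKM in RNA-Seq and at 162 and 39.2 in Ribo-Seq. HSPA1A, a cytosolic heat shock protein, was at 6.09 and 14.8 and at 7.31 and 22.1.

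**Figure D4:**
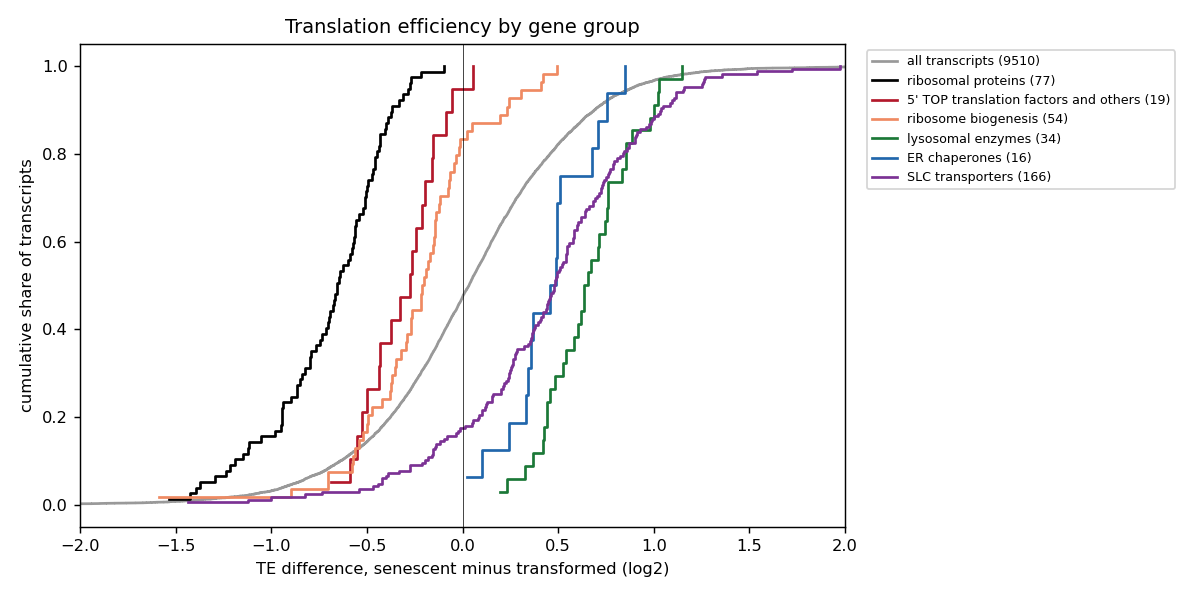
Cumulative share of transcripts (y axis) against the TE difference, senescent minus transformed, in log2 (x axis), for all transcripts and 6 gene groups; the axis is limited to 2 on either side. The curve of ribosomal proteins lies wholly below 0, and those of lysosomal enzymes and endoplasmic reticulum chaperones wholly above it.

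The largest TE differences belonged to histone genes, a family looked at after their values were seen. Of 13 listed, 10 were higher and none lower in RNA-Seq, with a median of 1.37, while all 13 were lower in Ribo-Seq, with a median of -3.98. In RNA-Seq the members ran from 1.94 to 215 FPKM with a median of 18.4 in senescent cells, from 1.21 to 87.7 with a median of 6.21 in transformed and from the floor to 39.7 with a median of 2.99 in proliferating cells. Their footprints ran from 8.46 to 99.5 FPKM in senescent cells, with medians of 455 in transformed and 436 in proliferating cells. HIST1H4H, a histone H4 gene, was at 31.4, 4.71 and 2.35 in RNA-Seq, with footprints at 1234 in transformed and 1484 in proliferating cells and a Ribo-Seq ratio of -4.04. HIST1H1C, a linker histone, was at 88.2, 14.9 and 11.0 and at 82.2, 675 and 645. In Ribo-Seq the senescent values lay below both others in every gene. Replication-dependent histone mRNAs normally end in a stem-loop without a poly(A) tail, and the RNA-Seq libraries were made from poly(A)-selected RNA, so these TE differences compare footprints of all histone mRNAs with the polyadenylated ones alone. The genes are near-identical copies, of which uniquely mapped reads cover a part.

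**Figure D5:**
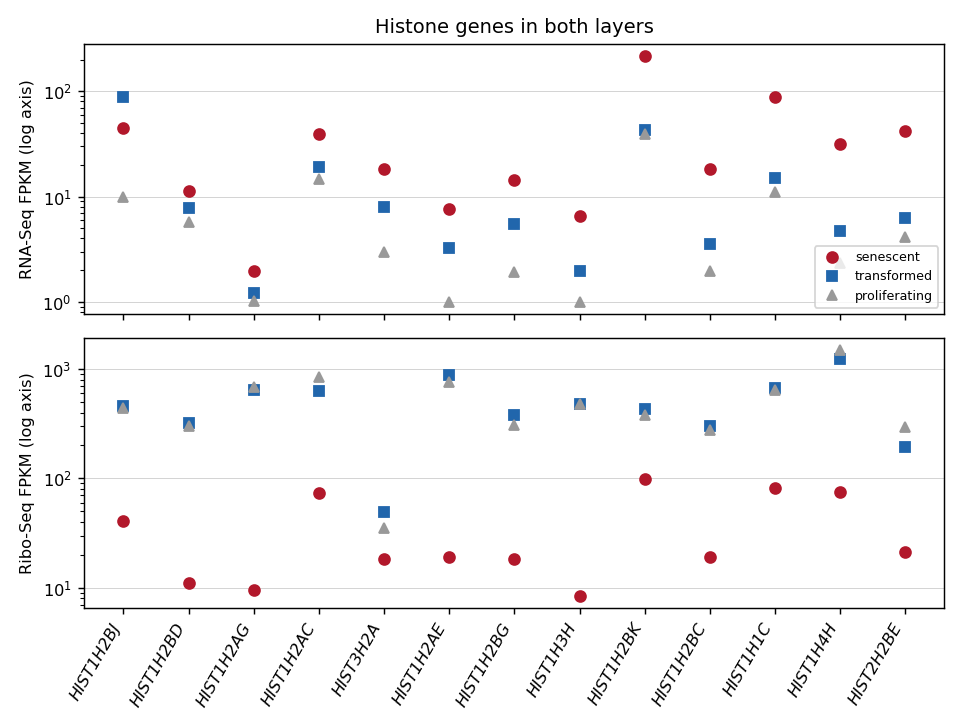
FPKM on a log axis of 13 histone genes, ordered by RNA-Seq ratio, in the senescent, transformed and proliferating libraries, RNA-Seq above and Ribo-Seq below. Senescent cells are the highest in RNA-Seq for all but HIST1H2BJ and the lowest in Ribo-Seq for all 13.

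Outside the lists, the transcripts that differed most in both layers included TMEM40, a membrane protein, at 21.1 FPKM in senescent RNA-Seq and at the floor in both other libraries. CPA4, a carboxypeptidase, was at 27.3, 1.72 and 9.36, ANXA3, an annexin, at 25.5, 1.19 and 3.32, and ATP8B1, a phospholipid flippase, at 54.3, 4.38 and 28.2. KRT34, a hair keratin, was at 25.2 FPKM in senescent and 50.7 in proliferating cells and higher by log2 4.07 than in transformed cells, and SLC16A4, a transporter of the monocarboxylate family, at 42.4, 4.38 and 12.3. MXRA5, a matrix-remodelling associated protein, was at the floor against 45.5 and 32.2. In the libraries of this run TMEM40 and ANXA3 were thus highest in senescent cells and MXRA5 lowest in them. KRT34 and MXRA5 also differed between the proliferating columns, where the pooled column lay at log2 -3.56 and -2.04 from the library of the same run. By TE, CTGF, a matricellular growth factor, was at 77.8 and 86.1 FPKM in RNA-Seq and at 444 and 182 in Ribo-Seq, and ZNF217, a zinc finger factor, at 11.6 and 77.8 and at 15.5 and 35.4, a TE difference of 1.56.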

How the data were processed

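RNA-Seq and Ribo-Seq libraries of senescent and transformed BJ cells were compared, 1 library per state and layer. The deposited values are FPKM, for which the authors aligned reads with Bowtie to protein-coding transcripts (per the labels hg19), kept uniquely mapped reads and the isoform with the longest coding sequence, counted RNA-Seq reads over the transcript and footprints over the coding sequence, and raised values under 1 to 1. Cycloheximide was present during footprinting. The table gives no counts, so depth was not derived and counting intervals are not given. Log2 ratios and TE differences were computed with pandas 2.3.3 and checked on simulated data, and a call was 2-fold. Named genes were the engineered genes, up to 4 members per list by size of the RNA-Seq ratio (TE for translation lists) at a mean of at least 10 FPKM, and 10 per direction in both layers and in TE; others are said to be chosen later. One engineered gene is not reported here. The 31 lists (93 of 849 entries are not listed in the table) and the comparison were chosen with earlier results of these data known. Promoter windows are RefSeq's, GRCh38.p14. The alternatives tried were the floor, filter, centring and call rule.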

Additional observations from a re-analysis of the deposited data

How the results depend on the processing

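Of 246 list medians in RNA-Seq and TE recomputed with the floor, filter or centring changed, 10 took another sign. The median farthest from 0 among them was that of CDK inhibitors and the RB family in RNA-Seq, -1.01 as reported and 1.14 over 3 transcripts at a mean of at least 10 FPKM. At the same minimum the median of the interferon and antigen presentation list was -0.34 (as reported -1.34) and that of the cytokines -2.52 (as reported -1.64). With 1 FPKM added to every value 191 transcripts were higher in TE. At a mean of at least 10 FPKM, where 5753, 5977 and 5041 transcripts were tested, 513 were higher and 608 lower in RNA-Seq, 818 lower in Ribo-Seq, and 65 higher and 136 lower in TE. At 1.5-fold, 1766 and 2595 were called in RNA-Seq, 2197 and 2888 in Ribo-Seq and 1339 and 1106 in TE. With the sliding call on local SDs, 247 and 518 were called in RNA-Seq and 279 and 443 in Ribo-Seq. Centring the ratios gave 963 and 1275 in RNA-Seq. A call also larger than the difference of the proliferating columns, chosen after seeing the data, left 720 and 1408 in RNA-Seq and 283 and 262 in TE. The planned call against same-run replicates was not run, since those replicates are pooled in the table. No paired analysis was possible because each state has 1 library and the result comes from no test.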

Other observations

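Several further families, gathered by symbol, were looked at after their values were seen. In senescent cells 7 of 10 hnRNPs, which package nascent RNA, were lower in RNA-Seq with a median log2 ratio of -1.34. Symbols of hnRNPs without a number, such as HNRNPC, were not gathered. Of 18 splicing factors 6 were lower with a median of -0.67. Of 21 transcripts named NUP, mostly nucleoporins, 9 were lower and 1 higher with a median of -0.96. The 21 include NUPR1, which is not a nucleoporin. The pair of proliferating columns, pooled over same-run, differed by medians of 0.59, 0.50 and 0.30 in these families. V-ATPase subunits, which acidify lysosomes, were higher in 11 of 15 with a median of 1.21. Of 38 transcripts named NDUF, subunits and assembly factors of complex I of the respiratory chain, 36 lay above 0. Their median was 0.54, and 45.0% of all transcripts lay above 0. Only 3 of the 38 were past 2-fold, near the share over all transcripts (8.19%). The proliferating columns differed by -0.30 in V-ATPase subunits and 0.17 in NDUF transcripts. Mitochondrial ribosomal proteins showed no such shift in TE as the cytosolic ones, with a median of -0.13 over 73.

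By symbol alone, 137 of 166 transcripts named SLC, mostly solute carriers, had a TE difference above 0, with a median of 0.48. So had 103 of 124 named TMEM, a naming class of transmembrane proteins, with a median of 0.42. The pair of proliferating columns differed by medians of 0.04 and -0.09 in the same families.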
